A study of Homo sapiens with 6 samples.

Results

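Heat shock proteins and cytosolic chaperones were followed in human forebrain organoids exposed to the amyloid-β peptide Aβ42. Members were taken by gene symbol: HSPA, HSPB, HSPD, HSPE, HSPH and HSP90 genes, DNAJA, DNAJB and DNAJC genes with a number, BAG1 to BAG6 and CCT2 to CCT8. The endoplasmic reticulum (ER) chaperones HSPA5, HSP90B1, DNAJB9, DNAJB11, DNAJC3 and DNAJC10 were left out. The rule found 85 of the 18056 genes in the table, and 71 of them had enough counts to be tested. They fell into 14 HSP70 genes (12 tested), 41 HSP40 genes (35 tested), 2 HSP90 genes (2 tested), 8 small HSP genes (3 tested), 9 CCT genes (8 tested), 6 BAG genes (6 tested), 3 HSP60 and HSP10 genes (3 tested) and 2 genes for HSP-binding proteins (2 tested). The label "cytosolic" holds only in part. Among others, HSPA9, HSPD1, HSPE1, DNAJA3 and DNAJC11 encode proteins of the mitochondrion. HSPA13, DNAJB12, DNAJB14 and DNAJC1 encode proteins of the ER.

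The organoids resemble dorsal forebrain and came from DYR0100, a human iPSC line (induced pluripotent stem cells) labelled wild type. Vehicle was given to 3 samples and 5 µM Aβ42 to 3 samples, for 6 days, and all 6 carry the same batch label. The single line limits the comparison to 1 genetic background, and the labels give neither the age of the organoids nor how many entered each sample. The series text calls the samples independent biological replicates, numbered 1 to 3 in each group.

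HSP70 proteins hold unfolded polypeptides in a cycle driven by ATP. HSP40 (DNAJ) proteins deliver clients to them and start ATP hydrolysis, and HSP110 and BAG proteins exchange the nucleotide and release the client. HSP90 finishes the folding of kinases and receptors, small heat shock proteins hold misfolded clients without ATP, and the CCT ring folds actin and tubulin. Heat shock factor 1 switches on the inducible members of these families through heat shock elements, inverted repeats of nGAAn, when misfolded protein accumulates. Several of these chaperones are known to bind amyloid-β or tau.

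Libraries held 16465390 to 16742958 estimated counts, and their TMM factors were 0.9963 to 1.006. Neuron and radial glia markers were tested in full (10 of 10 and 8 of 8), whereas none of 8 microglia markers had enough counts to test, and C1QA, C1QB, C1QC and TREM2 were at 0 in every library. All 10 cycling-cell markers were lower with Aβ42 (median log2 fold change -0.45), and so were 5 of 6 intermediate progenitor markers (-0.79). Neuron markers were 4 higher and 6 lower (-0.07), and radial glia markers 5 and 3 (0.05). Astrocyte markers were 2 higher and 4 lower (-0.36), choroid plexus markers 1 and 5 (-0.38) and motile ciliated cell markers 2 and 6 (-0.57). In bulk RNA, fewer cells of a type and less RNA per cell cannot be told apart. Aβ42 replicate 2 was nearer to vehicle replicates 1, 2 and 3 (chi-square per gene over 12186 genes 3.16, 7.7 and 4.58) than to Aβ42 replicates 1 and 3 (9.4 and 8.48). The libraries numbered 2 stood apart in both groups: their summed choroid plexus markers were 7560 TPM (vehicle) and 6655 TPM (Aβ42), against 2836 to 3961 TPM in the other 4 libraries. TPM, the scaled share of transcripts, takes gene length into account, and CPM, the scaled share of counts, does not.

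Heat shock elements in the promoters are shown first, because members that share them differ below in whether they passed. The 3-unit element (GAA, TTC and GAA, each 2 bases apart, or TTC, GAA and TTC on the other strand) lay within 250 bases before to 50 bases after the start used in RefSeq's promoter table (GRCh38.p14) in 7 of 76 members with a window (9.21%), against 0.608% of 27305 genes with one. These members were DNAJA1, DNAJB6, HSP90AA1, HSP90AB1, HSPA6, HSPA8 and HSPD1. The start can lie inside the gene's full span. In the windows below, element bases are in capitals, written 5′ to 3′ on the gene's strand.
HSP90AB1, first element, chr6:44247758-44247810, plus strand: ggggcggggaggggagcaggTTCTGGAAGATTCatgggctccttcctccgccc
HSP90AB1, second element, chr6:44247811-44247863, plus strand: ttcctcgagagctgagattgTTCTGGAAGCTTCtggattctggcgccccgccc
HSP90AA1, chr14:102087100-102087152, minus strand: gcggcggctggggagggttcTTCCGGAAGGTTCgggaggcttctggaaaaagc
HSPA6, chr1:161524446-161524498, plus strand: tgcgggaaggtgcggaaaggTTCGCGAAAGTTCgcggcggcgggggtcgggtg
HSPA8, proximal element, chr11:123062159-123062211, minus strand: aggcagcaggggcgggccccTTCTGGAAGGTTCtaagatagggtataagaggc

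HSP90AB1 and HSPA6, shown above, rose in the fit that pairs libraries by replicate number, and HSP90AA1 and HSPA8 passed in no fit. The elements printed begin 165 and 112 bases before the start of HSP90AB1, 88 before HSP90AA1, 74 before HSPA6 and 55 before HSPA8. The shorter 2-unit element (GAANNTTC or TTCNNGAA, each its own reverse complement and contained in the longer one) lay in 26 members (34.2%), against 16.2% of all genes with a window. HSPA1A and HSPA1B carry it in nearly the same surroundings, 106 and 105 bases before their starts.
HSPA1A, chr6:31815417-31815464, plus strand: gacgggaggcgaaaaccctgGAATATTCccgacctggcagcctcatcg
HSPA1B, chr6:31827613-31827660, plus strand: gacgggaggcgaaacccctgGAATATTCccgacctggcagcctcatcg

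All 7 members with the 3-unit element were tested, and 5 had a higher and 2 a lower fitted value with Aβ42 (median log2 fold change 0.0256, against 0.0289 for the 59 tested members with a window but without it). On the log2(TPM + 1) scale these were 2 higher and 5 lower (median -0.0119), and with the length correction 3 and 4 (-0.011). The 59 without it moved as well, to 29 higher and 30 lower on log2(TPM + 1) (median -0.0115). With the length correction those were 32 and 27 (0.0137). The median of all tested genes on log2(TPM + 1) was -0.0401.

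Of the 24 tested members with the 2-unit element, 21 had a higher and 3 a lower fitted value with Aβ42, with a median log2 fold change of 0.13. The 21 include HSPA1A and HSPA1B, which share reads, and HSPB8 (6 to 17 counts per library) and CCT6B (18 to 38). They also include HSPD1, DNAJB6, CCT2 and HSPA8, at only 0.01 to 0.04. On the log2(TPM + 1) scale the members with the 2-unit element split 17 to 7 (median 0.08), and without Aβ42 replicate 2 they were 20 and 4 (0.14). With the length correction they were 18 and 6 (0.12). The 42 tested members with a window but no such element had 19 higher and 23 lower (median -0.01). On log2(TPM + 1) those were 14 and 28 (-0.05), and with the length correction 17 and 25 (-0.02). Over all 1582 tested genes with the element, 791 were higher and 791 lower (median 0.0002). No test was made of these differences, and a match of letters is no evidence of binding.

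Aβ42 was compared with vehicle by edgeR's quasi-likelihood test. Without a block, no member reached the adjusted threshold of 0.05, and neither did any other gene (0% of 13842 tested). At 0.10 there were 6 members, 5 higher and 1 lower (8.45%), beside 6.95% of all genes (3.58% higher, 3.37% lower). DESeq2 called 6 members at 0.05 (CCT4, DNAJC12, DNAJC9, HSPA4L, HSPA9 and HSP90AB1), or 8.45% beside 5.88% of all genes. The replicate number was also fitted as a block, a pairing taken from the data and not from the labels. The data set apart only the libraries numbered 2. Adjusted p-values with the block, here and below, may be too small, because the same data were used to choose it. With that block, 12 of 71 members passed (16.9%), beside 14.2% of all genes. Of these, 10 rose (14.1% of members, 7.12% of all genes) and 2 fell (2.82% of members, 7.05% of all genes). The 10 were HSPA4L, HSPA9, HSPA1B, HSPA12A, HSPA6, HSP90AB1, CCT4, BAG3, DNAJC12 and DNAJB2, and the 2 were DNAJC9 and DNAJC11. The overall share of calls was thus near the background.

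Before adjustment, 15 members had a p-value under 0.05 (11 higher, 4 lower), or 21.1% beside 23.9% of all genes. The values of the groups did not overlap for 20 members (12 higher, 8 lower), or 28.2% beside 27% of all genes. The median log2 fold change of the 71 was 0.03, with 43 higher (60.6%) and 28 lower (39.4%), and that of all tested genes was 0.0032, with 50.7% higher and 49.3% lower. Without Aβ42 replicate 2, the only single library whose omission gave calls, 17 members passed (12 higher, 5 lower), beside 23.3% of all genes. Summed over all 85 members, chaperone transcripts made up 1.35% to 1.38% of TPM in vehicle and 1.35% to 1.37% with Aβ42.

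**Figure D1:**
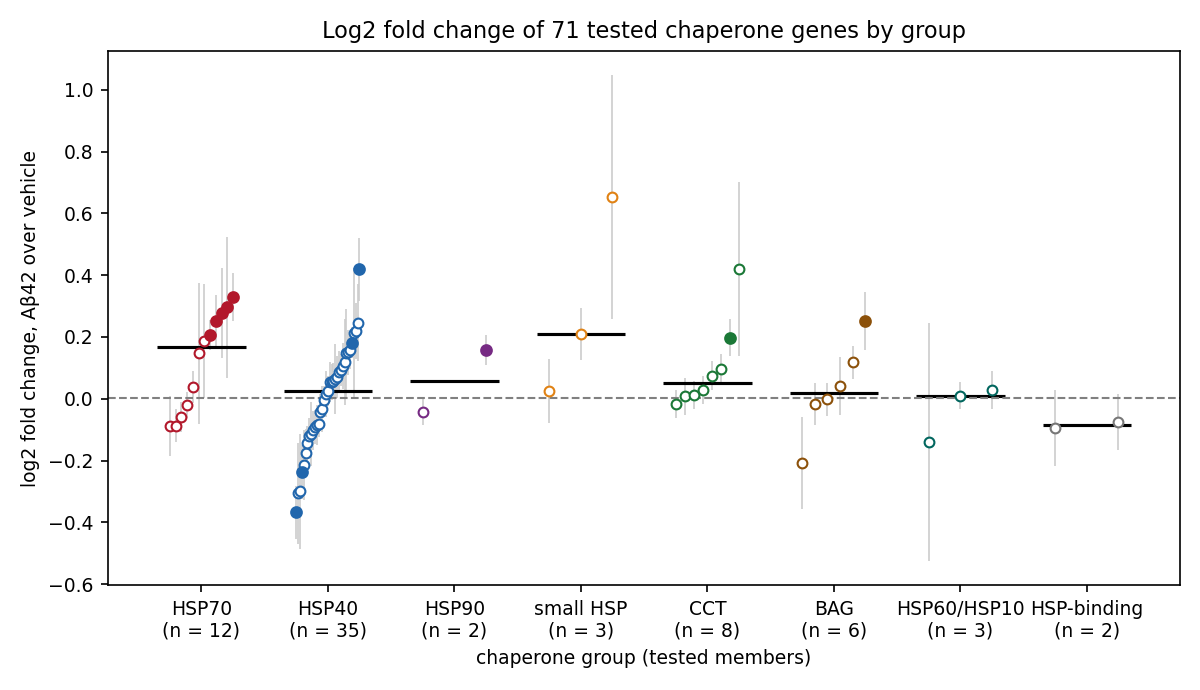
Log2 fold change of Aβ42 over vehicle (y axis) for each of the 71 tested members, by chaperone group (x axis). Points are genes with their SE, filled where the gene passed with the replicate block; black bars are group medians (0.17 for HSP70, 0.03 for HSP40), and the dashed line is the median of all tested genes (0.0032).

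By group, the median log2 fold change was 0.17 for HSP70 (8 of 12 higher), 0.03 for HSP40 (19 of 35 higher), 0.06 for HSP90 (1 of 2), 0.21 for the small HSP genes (3 of 3) and 0.05 for CCT (7 of 8). The small HSP median is the value of HSPB1 alone, between HSPB8, on 6 to 17 counts per library, and HSPB11 (0.03 ± 0.10). The log2(TPM + 1) scale moved the median of all genes from 0.0032 to -0.0401. On it the medians of HSP70 and the small HSP genes were 0.12 and 0.14. Those of HSP40, HSP90 and CCT were -0.01, 0.01 and 0.0011, and all of these lay above the median of all genes. Higher on that scale were 7 of 12 HSP70, 17 of 35 HSP40, 1 of 2 HSP90, 2 of 3 small HSP and 4 of 8 CCT genes. With the length correction, 2 of 3 small HSP and 5 of 8 CCT genes were higher. The HSP70 median was 0.06 without vehicle replicate 2. It lies between the values of HSPA1L (0.15 ± 0.23) and HSPA1A (0.19 ± 0.18), both with a wide SE. The mean log2 deviation of the HSP70 genes was -0.0393, -0.1536 and 0.0081 in vehicle replicates 1 to 3. In Aβ42 replicates 1 to 3 it was 0.116, -0.0313 and 0.1, so Aβ42 replicate 2 lay within the vehicle range. With the replicate block, 5 of 12 HSP70 genes passed, all higher, beside 2 higher and 2 lower of 35 HSP40 genes. So did 1 of 2 HSP90 genes, 0 of 3 small HSP genes and 1 of 8 CCT genes. Over all tested genes 7.12% passed higher and 7.05% lower. Of the HSP70 genes that passed, HSPA1B and HSPA6 had edgeR adjusted p-values of 0.302 and 0.463 without the block. Differences between the groups were not tested.

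Levels spanned more than the groups did. HSPA8, the constitutive HSP70, was the most abundant member at 2260 ± 10.7 TPM in vehicle (SD, n = 3 here and below), above HSP90AB1 (1752 ± 19.9) and HSP90AA1 (1582 ± 39.7). DNAJA1 (557.7 ± 6.78), the mitochondrial chaperonin HSPD1 (539.6 ± 9.82) and its co-chaperonin HSPE1 (510.8 ± 19.0) came next, and the ranges of 1 SD around HSPD1 and HSPE1 nearly met. CCT2 (380.0 ± 11.6), DNAJB6 (371.1 ± 6.20) and HSPA1B (362.2 ± 25.6) did not differ beyond their spread. The HSP70 group summed to 3697 ± 66.4 TPM in vehicle and 3749 ± 109.2 TPM with Aβ42, HSP40 to 2887 ± 73.9 and 2810 ± 21.9, and HSP90 to 3334 ± 25.1 and 3379 ± 37.1. CCT summed to 2040 ± 44.8 and 2059 ± 20.6 TPM and the small HSP genes to 217.0 ± 12.2 and 228.8 ± 13.2. Each of these sums moved by less than, or little more than, the larger of its SDs, and HSP40 and HSP90 moved by more than the smaller one.

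**Figure D2:**
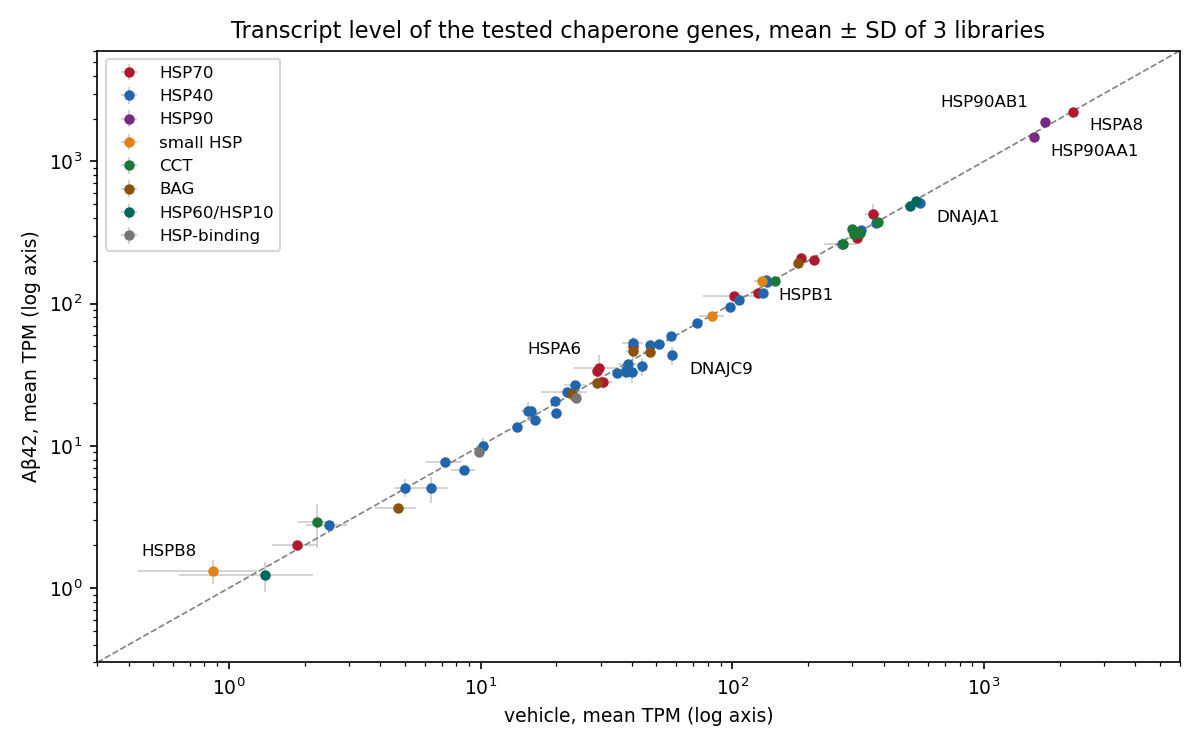
Mean TPM with Aβ42 (y axis, log) against mean TPM in vehicle (x axis, log) for the 71 tested members, coloured by group, with the SD of 3 libraries as error bars. HSPA8 (2260 TPM in vehicle) and the HSP90 genes stand at the top right, and all members lie close to the dashed line of equality.

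Within HSP70, 5 genes passed with the block. HSPA4L (Entrez gene ID 22824, chr4:127781796-127840733), an HSP110-type nucleotide exchange factor, had 146.2, 142.6 and 153.9 CPM in vehicle replicates 1 to 3 and 200.4, 160.5 and 195.2 CPM in Aβ42 replicates 1 to 3. All Aβ42 values lay above all vehicle values, with Aβ42 replicate 2 the nearest. The log2 fold change was 0.33 ± 0.08 (SE, edgeR), or 1.256-fold, with an adjusted p-value of 0.0734 without and 0.00168 with the block. HSPA9 (3313, chr5:138553756-138575401), the mitochondrial HSP70 that draws imported proteins into the matrix, went from 317.5, 303.9 and 331.7 CPM to 367.4, 357.3 and 374.0 CPM. Its groups did not overlap, and replicate 2 was the lowest of each group. The log2 fold change was 0.21 ± 0.05 (adjusted p-value 0.0734, and 0.0095 with the block).

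HSPA12A (259217, chr10:116671192-116850747), a distant HSP70 relative found in brain, had 66.1, 61.3 and 67.8 CPM in vehicle and 85.1, 67.2 and 80.0 CPM with Aβ42. Aβ42 replicate 2 fell just below vehicle replicate 3, so the groups overlapped. Its log2 fold change was 0.25 ± 0.08 (edgeR adjusted p-value 0.121, and 0.0124 with the block).

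HSPA6 (3310, chr1:161524540-161526894), an HSP70 that in human cells is made chiefly under stress, was at 28.2, 18.8 and 27.1 CPM in vehicle and 36.5, 22.1 and 32.4 CPM with Aβ42. Replicate 2 was the lowest of its group on both sides, and Aβ42 replicate 2 lay below vehicle replicates 1 and 3. Within the numbered pairs the log2 difference was 0.37, 0.23 and 0.26, higher in 3 of 3 pairs. The unblocked fit gave 0.30 ± 0.23 (edgeR adjusted p-value 0.463), and the blocked fit passed at 0.0149. Without Aβ42 replicate 2 it did not pass (0.103).

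HSPA1A (3303, chr6:31815543-31817942) and HSPA1B (3304, chr6:31827738-31830254), the major heat-inducible HSP70 genes, lie beside each other and share reads. Their longest reading frames in GENCODE 29 have 1926 bases and differ at 4 of them (99.79% identity). Stretches of 100 bases from the HSPA1A transcript were found unchanged in that of HSPA1B in 69.9% of cases. The deposited counts of both genes are fractional while their sum is whole in 6 of 6 libraries (within 0.011 counts), so reads were divided between them and each gene's own value is uncertain. HSPA1B, with 75.6% to 82.2% of the sum, went from 339.7, 298.6 and 346.3 CPM to 453.4, 311.2 and 428.0 CPM. Replicate 2 was again the lowest of each group, and the groups overlapped through it. The log2 fold change was 0.28 ± 0.15 (edgeR adjusted p-value 0.302, and 0.0117 with the block). HSPA1A had 109.8, 64.7 and 87.3 CPM in vehicle and 101.5, 96.5 and 100.2 CPM with Aβ42 (0.19 ± 0.18, adjusted p-value 0.57, and 0.416 with the block). Its log2 fold change was 0.0123 without vehicle replicate 2 and 0.387 without vehicle replicate 1.

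The sum of both, a feature chosen after the values were seen, was 449.5, 363.3 and 433.6 CPM in vehicle and 554.8, 407.7 and 528.3 CPM with Aβ42. Every numbered pair was higher with Aβ42, by 0.30, 0.17 and 0.28 on the log2 scale. The log2 fold change was 0.26 ± 0.13 (edgeR adjusted p-value 0.28), and with the block it passed at 0.00326.

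The libraries numbered 2 were the lowest of both groups for 6 of 12 HSP70 genes (50%), beside 18.2% of all tested genes. The same libraries had the highest choroid plexus markers, as given above, and the part of that difference in the HSP70 values was not tested. With both libraries numbered 2 left out, an alternative added after the values were seen, HSPA6, HSPA1B, HSPA4L, HSPA9 and HSPA12A all passed.

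**Figure D3:**
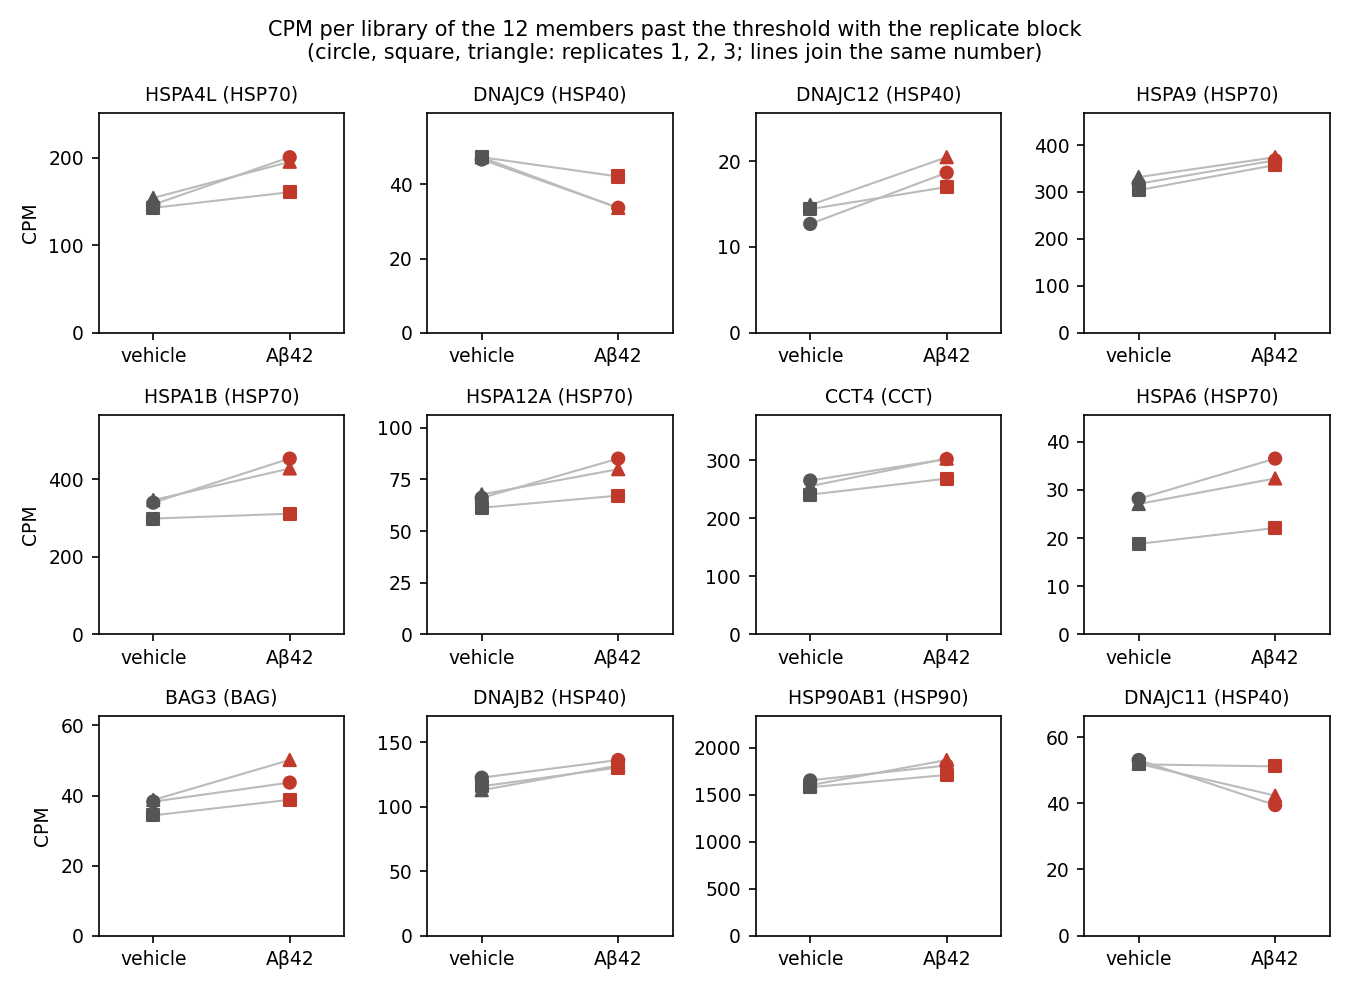
CPM per library (y axis, from 0) in vehicle (grey) and Aβ42 (red) for the 12 members that passed with the replicate block, with lines joining libraries of the same number. In HSPA6 and HSPA1B the squares (replicate 2) lie lowest on both sides, and in HSPA6 the line from 18.8 to 22.1 CPM runs below the other 2.

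The other HSP70 genes tested passed in no fit. HSPA8 (3312) was at 1822, 1786 and 1813 CPM in vehicle and 1769, 1825 and 1971 CPM with Aβ42, and the groups overlapped. Its log2 fold change was 0.04 ± 0.05 (edgeR adjusted p-value 0.674) and turned to -0.01 without Aβ42 replicate 3. It was also -0.01 on log2(TPM + 1), where the median of all genes was lower (-0.0401). HSPA4 (3308), an HSP110-type exchange factor like HSPA4L, had a log2 fold change of -0.02 ± 0.04 (0.804), with 385.9 to 394.1 CPM in vehicle and 381.3 to 390.9 CPM with Aβ42. HSPH1 (10808), the heat-inducible HSP110, was at 379.6, 409.7 and 425.9 CPM and then 398.4, 376.7 and 369.1 CPM (-0.09 ± 0.05, adjusted p-value 0.354). HSPA13 had a log2 fold change of -0.06 ± 0.05 (0.469).

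Of the HSP90 genes, HSP90AB1 passed with the block and HSP90AA1 did not. HSP90AB1 (3326, chr6:44246194-44253883), the constitutive HSP90β, was at 1654, 1581 and 1603 CPM in vehicle and 1813, 1712 and 1871 CPM with Aβ42. The groups did not overlap, and the log2 fold change was 0.16 ± 0.05 (1.115-fold, edgeR adjusted p-value 0.108, and 0.0402 with the block). HSP90AA1 (3320, chr14:102080742-102139749), the inducible HSP90α, was at 1875, 1888 and 1945 CPM in vehicle and 1840, 1857 and 1850 CPM with Aβ42. These groups did not overlap either, with Aβ42 lower, but the difference was small (-0.04 ± 0.04, adjusted p-value 0.577) and passed in no fit. The ratio of their TPM values, HSP90AB1 over HSP90AA1, ranged from 1.08 to 1.15 over the vehicle libraries (1.15, 1.09, 1.08). Over the Aβ42 libraries it was 1.29, 1.20 and 1.32, above every vehicle value in 3 of 3. This ratio was chosen after the values were seen and was not tested. Since the values of both genes already did not overlap, in opposite directions, the ratio was bound to separate the groups. HSP90AA1 had fractional counts as well, and may share reads with another feature.

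The HSP40 genes moved in both directions. DNAJC12 (56521, chr10:67796669-67838188), a partner of the aromatic amino acid hydroxylases that make dopamine and serotonin precursors, was at 12.7, 14.4 and 14.9 CPM in vehicle and 18.7, 16.98 and 20.5 CPM with Aβ42. The groups did not overlap, and the log2 fold change was 0.42 ± 0.10 (1.336-fold, edgeR adjusted p-value 0.0734, and 0.00838 with the block). DNAJB2 (3300, chr2:219279366-219286895), a ubiquitin-binding HSP40 enriched in neurons, went from 122.6, 115.9 and 112.9 CPM to 136.3, 130.5 and 132.0 CPM. All Aβ42 values were again the higher ones (0.18 ± 0.05, adjusted p-value 0.0837, and 0.0254 with the block).

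DNAJC9 (23234, chr10:73232272-73247255), a co-chaperone that handles newly made histones, was at 46.6, 47.2 and 47.2 CPM in vehicle and 33.6, 42.04 and 33.6 CPM with Aβ42. All Aβ42 values were lower, with replicate 2 nearest to vehicle. The log2 fold change was -0.37 ± 0.09 (edgeR adjusted p-value 0.0734, and 0.00364 with the block). The cycling-cell score, the mean log2 deviation of the 10 markers, stood at 0.16, 0.35 and 0.20 for vehicle replicates 1 to 3 and at -0.35, 0.07 and -0.43 for Aβ42 replicates 1 to 3, and its part in the DNAJC9 value was not tested. DNAJC11 (55735, chr1:6634170-6701816), part of the machinery that shapes mitochondrial cristae, went from 53.1, 51.7 and 51.9 CPM to 39.4, 51.1 and 42.3 CPM. The groups did not overlap, but Aβ42 replicate 2 lay only just below vehicle (-0.24 ± 0.09, adjusted p-value 0.143, and 0.0433 with the block). DNAJC9 and DNAJC11 had fractional counts, so each may share reads with another feature, as HSPA4L and HSPA12A may.

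The groups did not overlap for 12 of 35 HSP40 genes (5 higher, 7 lower), beside 27% of all genes (13.6% higher, 13.4% lower). Among those that did not pass with the block were DNAJA3, the mitochondrial partner of HSPA9 (0.16 ± 0.06, edgeR adjusted p-value 0.153), and DNAJC1, an ER membrane protein (0.22 ± 0.09, 0.179). DNAJB14 (-0.14 ± 0.06, 0.159) and DNAJB12 (-0.17 ± 0.08, 0.194), related ER membrane proteins whose J domains face the cytosol, both had non-overlapping lower values. With the block the adjusted p-values of these 4 were 0.0926 to 0.156, and DNAJB14 passed without Aβ42 replicate 2 (0.0304).

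The 3 most abundant HSP40 genes, DNAJA1, DNAJB6 and DNAJB1, passed in no fit. DNAJB1 (3337), the heat-inducible partner of HSPA1A, was at 256.0, 250.4 and 267.2 CPM in vehicle and 280.8, 240.0 and 282.4 CPM with Aβ42. Aβ42 replicate 2 was the lowest of all 6 libraries (0.05 ± 0.06, edgeR adjusted p-value 0.628). Leaving out Aβ42 replicate 2 gave 0.127 (0.0655), and leaving out Aβ42 replicate 3 gave 0.0139. DNAJA1 (3301) was at 458.7, 453.3 and 463.5 CPM and then 424.5, 443.6 and 432.8 CPM. All Aβ42 values were lower, without passing (-0.08 ± 0.04, adjusted p-value 0.28). DNAJB6, a suppressor of amyloid formation in model systems, had a log2 fold change of 0.03 ± 0.05 (0.781), which turned to -0.01 with the length correction. DNAJC6 and DNAJC5, named here after their values were seen for their roles in coated vesicles and synaptic vesicles, had log2 fold changes of 0.06 ± 0.06 (0.579) and -0.0050 ± 0.05 (0.955). By class the medians were 0.09 for the 4 DNAJA, 0.06 for the 8 DNAJB and -0.03 for the 23 DNAJC genes tested.

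**Figure D4:**
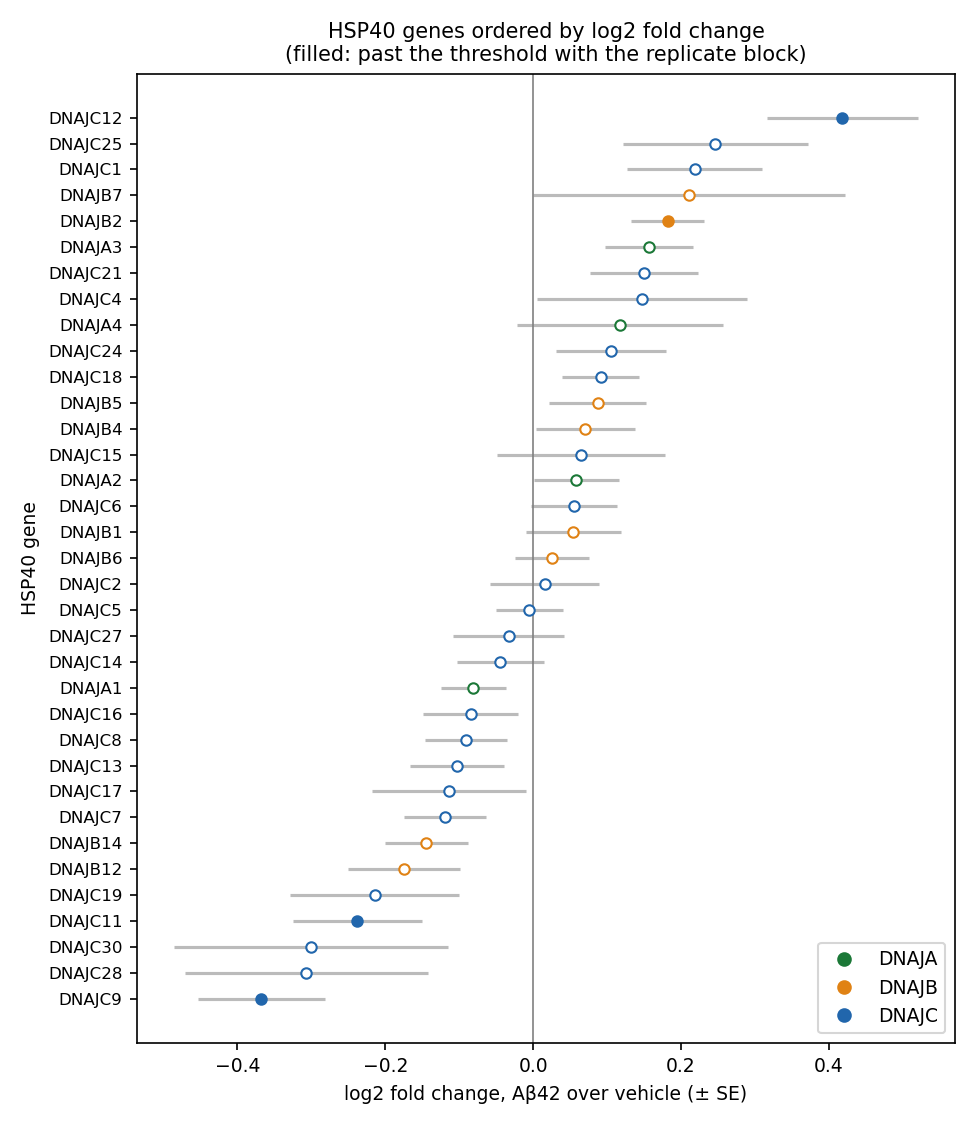
Log2 fold change of Aβ42 over vehicle with its SE (x axis) for the 35 tested HSP40 genes, ordered by size (y axis) and coloured by class. The values run from DNAJC9 (-0.37) to DNAJC12 (0.42), which stands apart from DNAJC25 (0.25) below it, and the 4 filled points passed with the replicate block.

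Among the BAG genes, BAG3 alone passed with the block. BAG3 (9531, chr10:119651380-119677819), which links HSP70 to small heat shock proteins and to selective autophagy, was at 38.3, 34.4 and 38.7 CPM in vehicle and 43.7, 38.8 and 50.1 CPM with Aβ42. The groups were separated by a very small gap between vehicle replicate 3 and Aβ42 replicate 2. The log2 fold change was 0.25 ± 0.09 (edgeR adjusted p-value 0.146, and 0.024 with the block). BAG6, a holdase for tail-anchored membrane proteins, had a log2 fold change of 0.12 ± 0.05 (0.213) with overlapping groups, and passed (0.0384) without Aβ42 replicate 2. BAG2 (-0.21 ± 0.15, 0.407), BAG1 (-0.02 ± 0.07, 0.901) and BAG5 (-0.0023 ± 0.05, 0.982) did not pass, and the direction of BAG1 and BAG5 turned under some alternatives.

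Of the 8 small HSP genes, 5 had too few counts to test. HSPB1 (3315, chr7:76302673-76304292), the most abundant at 131.3 ± 9.45 TPM in vehicle, was at 26.1, 24.0 and 22.02 CPM in vehicle and 26.1, 29.6 and 27.7 CPM with Aβ42. Vehicle replicate 1 and Aβ42 replicate 1 were almost equal, and the other values were separated (0.21 ± 0.08, edgeR adjusted p-value 0.166, and 0.096 with the block). HSPB8, which acts with BAG3, had the largest log2 fold change of all members tested, 0.65, but on 6 to 17 counts per library and with an SE of 0.40 (adjusted p-value 0.336). HSPB11, better known as an intraflagellar transport protein, had 0.03 ± 0.10 (0.903), and its direction turned with the length correction (-0.06) and without vehicle replicate 2 (-0.05).

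The CCT subunits are built into 1 ring and their transcripts lay between 147.8 TPM (CCT5) and 380.0 TPM (CCT2) in vehicle, apart from CCT6B, a testis-type paralog at 2.25 TPM. CCT4 (10575, chr2:61868085-61888671) alone passed with the block. It was at 265.2, 240.8 and 255.5 CPM in vehicle and 302.2, 268.5 and 303.0 CPM with Aβ42. The groups did not overlap, and the log2 fold change was 0.20 ± 0.06 (1.147-fold, edgeR adjusted p-value 0.0984, and 0.0132 with the block).

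The remaining ring subunits stayed within a narrow range. CCT8 (0.10 ± 0.05, edgeR adjusted p-value 0.267) and CCT7 (0.07 ± 0.05, 0.35) had the next largest values, and only those of CCT7 did not overlap. CCT2 (0.03 ± 0.04, 0.717), CCT3 (0.01 ± 0.05, 0.891), CCT5 (0.0086 ± 0.06, 0.942) and CCT6A (-0.02 ± 0.05, 0.837) had values that turned sign under at least 2 alternatives each. CCT5 was lowest in Aβ42 replicate 1, at 164.9 CPM against 178.1 to 191.5 CPM in the other 5 libraries. CCT6B had 18 to 38 counts per library (0.42 ± 0.28, 0.383). TCP1, the ring subunit whose symbol falls outside the rule, had 424.8 ± 3.30 TPM in vehicle and a log2 fold change of 0.06 ± 0.04 (0.46).

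**Figure D5:**
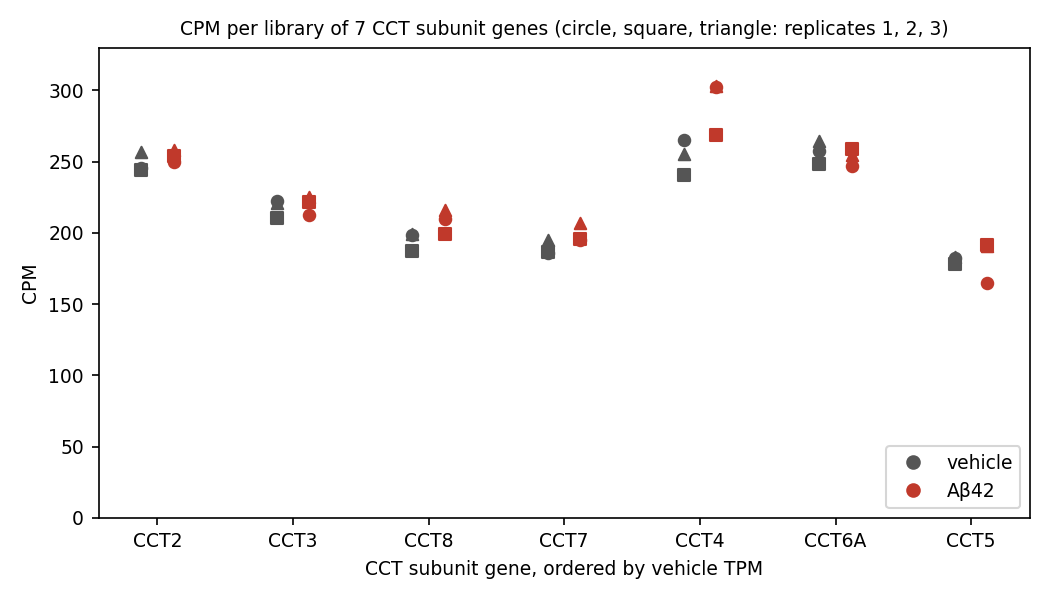
CPM per library (y axis, from 0) for 7 CCT subunit genes ordered by vehicle TPM (x axis), vehicle in grey and Aβ42 in red. In CCT4 the red symbols (268.5 to 303.0 CPM) lie above the grey ones (240.8 to 265.2 CPM) by a small gap. Only CCT7 is separated as well, by a smaller gap (195.2 to 195.3 CPM), and CCT5 has 1 low red circle at 164.9 CPM.

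The mitochondrial chaperonin genes, which face each other across a shared promoter on chromosome 2, passed in no fit. HSPD1 (3329) was at 426.9, 419.5 and 435.4 CPM in vehicle and 438.7, 432.1 and 420.3 CPM with Aβ42 (0.01 ± 0.04, edgeR adjusted p-value 0.905). HSPE1 (3336) had a log2 fold change of 0.03 ± 0.06 (0.801), and shares sequence with the readthrough gene HSPE1-MOB4, both with fractional counts. On the log2(TPM + 1) scale they had -0.04 and -0.07, where the median of all genes was -0.0401. HSPBP1, a nucleotide exchange factor of HSP70, and HSPBAP1, which binds HSPB1, had log2 fold changes of -0.08 ± 0.09 (0.636) and -0.09 ± 0.12 (0.665).

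The 14 members that could not be tested were near the limit of detection. DNAJB13 (5 to 13 counts per library) and HSPA2 (5 to 12), chaperone genes of sperm and cilia, had the most. HSPB2, HSPB3, HSPB6, HSPB7, HSPB9, HSPA12B, DNAJB8, DNAJC22, DNAJC5B, DNAJC5G and CCT8L2 had 0 to 7 counts per library, and DNAJC25-GNG10 had 0 in all 6, where a count of 0 allows up to 3. Differences in the 14 genes were not detectable at such counts.

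Related genes outside the rule are given by list, where 14.2% of all tested genes passed with the block. Of 15 HSP90 co-chaperones, all tested, 12 had higher and 3 lower fitted values (median log2 fold change 0.08), and 1 passed with the block. It was FKBP4, a peptidyl-prolyl isomerase of steroid receptor complexes, at 190.9, 171.9 and 177.9 CPM in vehicle and 219.8, 198.9 and 224.1 CPM with Aβ42 (0.25 ± 0.06, edgeR adjusted p-value 0.0734, and 0.00417 with the block). Prefoldin and other CCT partners had 5 higher and 5 lower of 10 (median -0.02), with PFDN5 higher (0.0062 with the block) and PDCL3 lower (0.0472).

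Of 4 heat shock factor genes, 3 were higher (median 0.25) and 2 passed with the block. HSF1, the main factor of the heat shock response, was at 38.5, 36.5 and 36.8 CPM in vehicle and 49.7, 42.6 and 47.6 CPM with Aβ42. The groups did not overlap (0.32 ± 0.07, edgeR adjusted p-value 0.0697, and 0.00457 with the block). HSF4, a factor best known from the lens, was at 4.21, 4.56 and 3.96 CPM and then 7.98, 6.24 and 6.24 CPM (0.68 ± 0.16, adjusted p-value 0.0734, and 0.0077 with the block). Of 19 textbook HSF1 target genes, 13 of them members, 16 were higher and 3 lower (median 0.09), where 50.7% of all genes were higher. With the block 5 passed, all higher, where 7.12% of all genes did. The 3 lower ones, HSPH1, HSP90AA1 and DNAJA1, are heat-inducible as well. The 16 include HSPA8, HSPD1 and HSPE1 at 0.04, 0.01 and 0.03, and HSPA1A and HSPA1B, which share reads. On log2(TPM + 1) HSPA8, HSPD1 and HSPE1 turned to -0.012, -0.038 and -0.074, where the median of all genes was -0.0401. The list was chosen with earlier results of these data known. The mean log2 deviation of the 19 was -0.0227, -0.0906 and -0.0446 in vehicle replicates 1 to 3. In Aβ42 replicates 1 to 3 it was 0.0859, -0.0247 and 0.0969, so Aβ42 replicate 2 lay within the vehicle range. Their summed TPM was 9317 ± 108 in vehicle and 9387 ± 139 with Aβ42 (SD).

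Of 9 mitochondrial chaperone genes, 4 of them members, 8 were higher (median 0.08) and 2 passed with the block, HSPA9 and TRAP1, the mitochondrial HSP90 (0.21 ± 0.06, edgeR adjusted p-value 0.0993, and 0.0207 with the block). The 6 ER chaperones left out of the members had 2 higher and 4 lower (median -0.05), and DNAJB9 alone passed with the block (0.0428). CRYAB, the small heat shock protein αB-crystallin, had a log2 fold change of 0.06 ± 0.17 (0.848), and CRYAA was not tested.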

How the data were processed

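The authors deposited 1 table, and per the file headers it gives each gene's read count (an estimated count here) and its TPM in each library. The submitters' processing notes list FastQC, STAR 2.7.11b, featureCounts 2.0.6 and GRCh38. Only 86.9% to 87.5% of the deposited counts were whole, so they were treated as estimated counts and rounded. The annotation, and whether counting used strand, are not given in the sources used here, so overlapping or antisense genes could share reads. The deposited TPM values are scaled by the authors for length and library total.

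Genes were kept with filterByExpr (13842 genes), scaled by TMM and compared with edgeR 4.0.16 (quasi-likelihood, robust, two-sided, in R 4.3.3), with Benjamini-Hochberg adjustment over all genes tested and a threshold of 0.05. CPM values are TMM-scaled. The SE was taken as the absolute log2 difference over the root of the F statistic. Alternatives used limma 3.58.1 and DESeq2 1.42.0. Length for the correction came from counts over TPM (loess span 0.3). Fits were checked on simulated data with larger changes than those of the members that passed here and with no replicate effect. That check does not bear on the calls made with the block.

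Deviations from the group means over 12186 genes correlated at 0.181, 0.388 and 0.129 between libraries of the same number, all above 0.1, so same-numbered libraries were treated as pairs. That pairing comes from the data and not from the labels. Libraries 1 and 3 also correlated crosswise, at 0.154 (vehicle 1 with Aβ42 3) and 0.177 (vehicle 3 with Aβ42 1). The latter exceeded the 0.129 of the libraries numbered 3, so the values do not settle how libraries 1 and 3 pair. Since the block was chosen on the data it was then fitted to, its adjusted p-values may be too small. No libraries were duplicates (chi-square per gene 3.16 to 21.1). The biological coefficient of variation was 6.75%.

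Members and lists were chosen with earlier results of these data known. Named are the textbook members, the smallest p-values per group and direction, the 10 smallest adjusted p-values with the block and the 2 highest TPM values per group (43 genes). RefSeq locations were found for 85 members and promoter windows for 76. Motifs were searched on both strands.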

Additional observations from a re-analysis of the deposited data

How the results depend on the processing

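In edgeR's unblocked fit 0 members and 0 genes were called, with 3302 genes at an unadjusted p-value under 0.05. The counts of members and of all genes called were 3 and 360 when low counts were not filtered, and 6 and 814 by DESeq2. Fitting the replicate block gave 12 and 1962, and combining it with the length correction gave 12 and 1994. RLE scaling, limma-voom, a filter at a mean of 10 counts, log2(TPM + 1) and the length correction alone called 0. Leaving out 1 library called 0 to 17 members and 0 to 3228 genes, and only the fit without Aβ42 replicate 2 called any. Its 17 members shared 11 with the block. Without replicate 2 in both groups, an alternative chosen after seeing the data, 14 members and 2345 genes were called. Members at an unadjusted p-value under 0.05, 15 in the unblocked fit, were 23 with the block and length correction, 23 without replicate 2 in both groups, and 9 to 28 with 1 library left out. The HSP70 median was 0.062 without replicate 2 in both groups and 0.056 to 0.213 with 1 library left out. On log2(TPM + 1) the medians of HSP40 and HSP90 were -0.0070 and 0.011, and with 1 library left out that of HSP40 was -0.00465 to 0.0589. The cause of these differences was not tested.

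Genes near 0 turned direction under some alternatives. On log2(TPM + 1), where the median of all genes was -0.0401 against 0.0032, these were CCT2 (-0.021), CCT3 (-0.037), CCT5 (-0.04), DNAJB6 (-0.0070), HSPA8 (-0.012), HSPB11 (-0.012), HSPD1 (-0.038) and HSPE1 (-0.074), and HSPE1 alone of these lay below that median. With the length correction they were BAG5 (0.011), CCT2 (-1e-04), CCT3 (-0.016), DNAJB6 (-0.011), HSPB11 (-0.055), HSPD1 (-0.014) and HSPE1 (-0.072). With the replicate block and length correction they were BAG5 (0.011), CCT3 (-0.015), CCT5 (-0.0014), DNAJB6 (-0.012), HSPB11 (-0.053), HSPD1 (-0.015) and HSPE1 (-0.072). Without replicate 2 in both groups they were CCT3 (-0.018), CCT5 (-0.041), HSPB11 (-0.078) and HSPD1 (-0.0055). With 1 library left out the ranges were -0.0623 to 0.0425 for BAG1, -0.0371 to 0.0351 for BAG5, -0.0115 to 0.0357 for CCT3, -0.0284 to 0.0759 for CCT5, -0.0405 to 0.00364 for CCT6A, -0.00698 to 0.064 for DNAJB6, -0.00819 to 0.0709 for HSPA8, -0.0536 to 0.0713 for HSPB11, -0.00368 to 0.0272 for HSPD1 and -0.0109 to 0.0579 for HSPE1.

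The replicate block changed the call of 12 named members, those listed as passing with it, and of no other. Low counts kept 14 members from being tested, and HSPB8 (6 to 17 counts) and CCT6B (18 to 38 counts) were measured on few.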
